A study of Homo sapiens with 6 samples.

Results

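The resting transcriptome of an hTERT-RPE1 cell line that carries a doxycycline-inducible FLAG-FOXM1c transgene was described from its 3 libraries without doxycycline (no dox), out of 6 RNA-seq libraries in all. Genes were ranked by their mean FPKM over these 3 libraries and named through the gene column of the authors' deposited comparison table, which gave a symbol to 13008 of the 57773 genes with an FPKM value. The study examined how transcription changes when FOXM1, a forkhead transcription factor that drives genes of the late cell cycle, is induced. The no dox libraries carry the genotype label WT and no treatment, and the 3 other libraries (dox) carry the label FOXM1 overexpression and received doxycycline at 1 µg/mL at intervals of 24 hours over 48 hours. All 6 libraries bear the same line name, so the no dox cells hold the uninduced transgene as well as the telomerase transgene of the parent line. Polyadenylated RNA was sequenced in every library, and the sources used here do not say whether the line is a single clone or whether the replicates were separate cultures, so the spread between libraries may be technical.

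The hTERT-RPE1 line is a human retinal pigment epithelial line immortalised with TERT, the catalytic subunit of telomerase. In the eye the pigment epithelium is a polarised, pigmented sheet that recycles the visual chromophore and takes up shed photoreceptor membranes. In culture such cells spread on the dish, form actin bundles and lay down matrix, and RPE1 cells are widely used to study cell division, the centromere and the primary cilium.

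The no dox libraries held 31307141, 32280300 and 15094498 reads in genes for replicates 1, 2 and 3, and the dox libraries held 25148936 to 49882123. Replicate 3 was the shallowest library of either group. An FPKM is the number of reads per kilobase of gene width, scaled to the depth of the library, and a CPM is the same without the division by width. A gene counted here as expressed had an FPKM of at least 1 in all 3 no dox libraries, and 8736 genes met this, 8650 of them with a symbol. Among the named genes 1869 reached 10 FPKM in every no dox library, 115 reached 100 and 14 reached 1000. FOXM1 itself was measured at 10.3, 9.42 and 8.69 FPKM in the no dox libraries, a mean of 9.47 ± 0.815 (SD, n = 3), and at 136, 147 and 155 FPKM in the dox libraries. The groups did not overlap for FOXM1, which matches the labels. Reads of the endogenous gene and of the transgene are counted together, so a small uninduced output of the transgene cannot be told apart from the endogenous gene in the no dox value.

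The ranking depends on gene width. The width used by the authors exceeded the whole genomic span of the gene for 2131 of the 13008 named genes (16.4%), and it had a median ratio of 1.00 to the summed length of all annotated transcripts. Against the merged exons of GENCODE release 29, matched by identifier for 12752 genes, the width was larger by a median ratio of 2.24 (quartiles 1.51 and 3.21). Deposited FPKM values therefore sit low for genes with many annotated transcripts, and each level below is given as deposited. The level per kilobase of merged exon is added for some genes only, and levels given without it can depend on the width too. ZEB1, for example, went from 1.07 FPKM and rank 8899 to 7.43 and rank 5120, and CENPA from 2.89 FPKM to 9.25. ACTG1, a cytoplasmic actin, had 406 ± 29.3 FPKM (SD, n = 3) and ranked at 26 among the named genes. Per kilobase of merged exon ACTG1 reached 2870 ± 207 and ranked at 4. FN1, the matrix glycoprotein fibronectin, took more reads than any other named gene, with a mean of 10147 CPM. By deposited FPKM FN1 stood at rank 187 with 76.9 ± 7.24, and per kilobase of merged exon it stood at rank 41. Of the 100 named genes of highest FPKM, 69 were also among the 100 highest per kilobase of merged exon, and the median width of the 100 was 3226 bases against 10738.5 bases for the expressed genes.

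**Figure D1:**
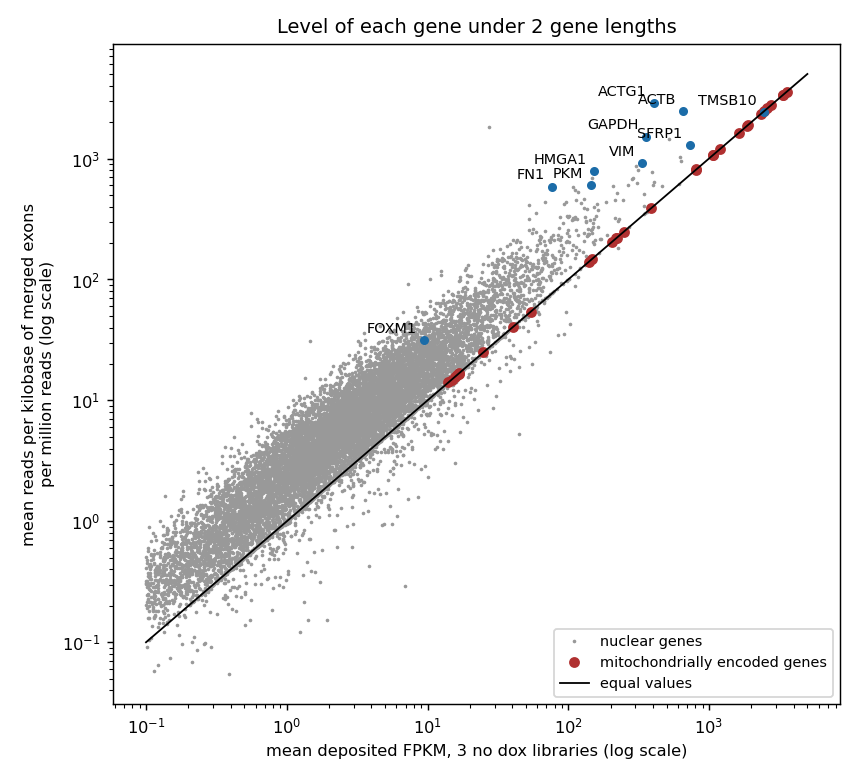
Level of each named gene with a mean of at least 0.1 FPKM in the no dox libraries, as deposited FPKM (horizontal) and as depth-scaled reads per kilobase of merged exon (vertical), both on log scales; the line marks equal values. Mitochondrially encoded genes and TMSB10 lie on the line, whereas ACTG1, FN1, PKM and HMGA1 lie far above it.

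The most abundant RNAs came from the mitochondrial genome. It encodes 13 subunits of the respiratory chain and the ATP synthase, with their ribosomal and transfer RNAs, and 22 of the 100 most abundant named genes were of this genome. MT-CO1, a core subunit of cytochrome c oxidase, had 2688, 2883 and 4506 FPKM in replicates 1, 2 and 3. MT-CO2, its partner subunit, had 2805, 3180 and 4105 FPKM. MT-ATP8, a short subunit of the ATP synthase, headed the ranking with 3262, 3804 and 3603 FPKM. Replicate 3 was highest for both oxidase subunits and not for MT-ATP8. MT-CO3 (2757 ± 511 FPKM), MT-RNR2 (2595 ± 729), MT-ATP6 (2472 ± 552), MT-ND4 (2324 ± 324), MT-CYB (1897 ± 131), MT-ND4L (1861 ± 198), MT-ND3 (1636 ± 204), MT-ND6 (1188 ± 120), MT-ND5 (1068 ± 55.1) and MT-ND1 (1066 ± 32.9) also exceeded 1000 FPKM on average (SD, n = 3 for each). MT-ND2 (814 ± 36.5) and the ribosomal RNA MT-RNR1 (805 ± 156) followed. These 31 mitochondrially encoded genes made up 24.2 ± 2.05% (SD, n = 3) of the summed FPKM of named genes, with 22.01%, 24.4% and 26.1% in replicates 1, 2 and 3. They took 2.80 ± 0.475% of the reads, and 13.2 ± 1.26% of the summed level per kilobase of merged exon. The sources used here do not say how reads shared with nuclear copies of the mitochondrial genome were treated.

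Genes of the actin cytoskeleton were among the most abundant nuclear genes. TMSB10, a thymosin that binds actin monomers, had 2154, 2703 and 2496 FPKM in replicates 1, 2 and 3. It was the only nuclear gene with at least 1000 FPKM in every no dox library, and its level per kilobase of merged exon was nearly the same, 2431 ± 275 (SD, n = 3). ACTB, the cytoplasmic beta-actin, had 728, 573 and 668 FPKM as deposited, and 2460 ± 294 per kilobase of merged exon. PFN1, the actin-monomer binding protein profilin, had 402 ± 21.3 FPKM, and MYH9, the heavy chain of non-muscle myosin, had 344 ± 27.6. All 32 genes of the actin list were expressed and 30 of them reached 10 FPKM in every no dox library. The list made up 4.45 ± 0.077% of the summed FPKM (SD, n = 3), close to the 4.48 ± 0.367% of the 74 ribosomal protein genes.

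SFRP1, a secreted antagonist of WNT signalling, was the second most abundant nuclear gene as deposited, with 649, 706 and 836 FPKM in replicates 1, 2 and 3. It kept a high place under every scale, with 1282 ± 168 per kilobase of merged exon and 6104 CPM, which ranked it at 5 by reads. EEF2, the elongation factor that moves the ribosome along the mRNA, had 619, 644 and 647 FPKM, with a coefficient of variation of 2.44%. RPS12, a protein of the small ribosomal subunit, had 579, 625 and 658 FPKM and was the highest of the ribosomal protein genes. The last gene inside the 100 most abundant was AXL, with 132.3 ± 6.96 FPKM, and the first outside was PCBP1, with 131.8 ± 5.91, so the border between them lay within the spread of the libraries. The 100 genes together held 40.8 ± 2.23% of the summed FPKM of named genes (SD, n = 3).

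**Figure D2:**
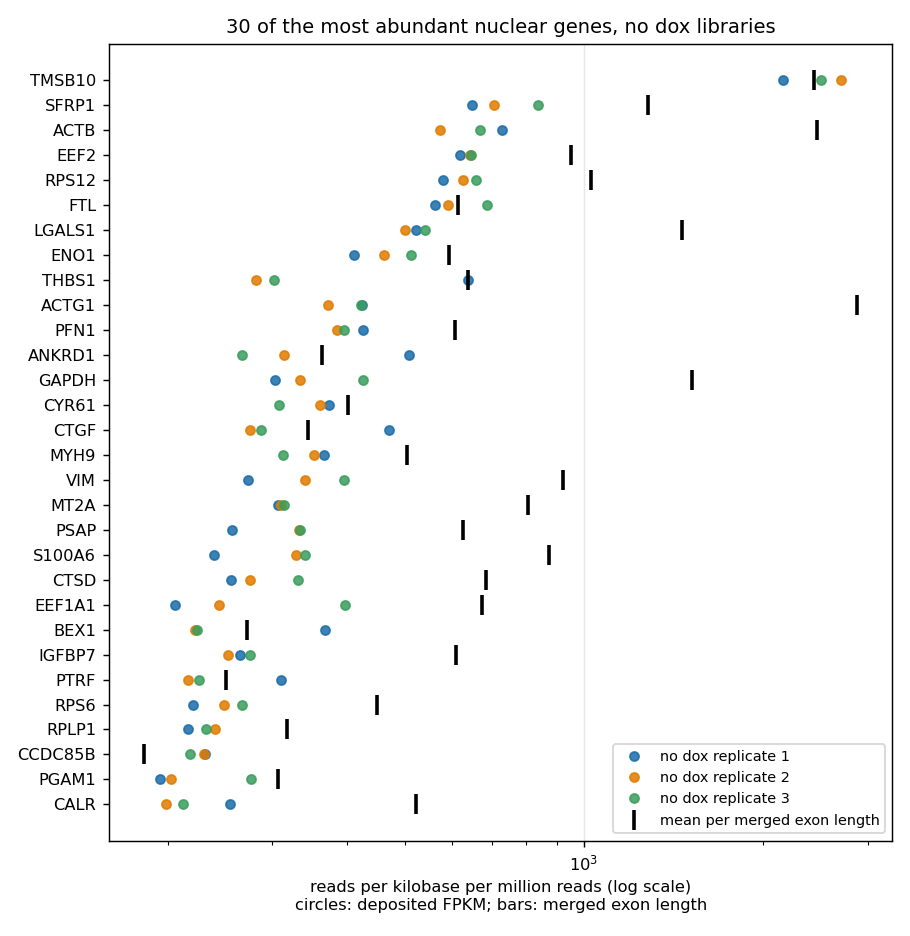
30 of the nuclear genes of highest mean FPKM in the no dox libraries, with the deposited FPKM of each library as a circle and the mean per kilobase of merged exon as a bar, on a log axis. TMSB10 stands apart near 2451 FPKM, THBS1, ANKRD1 and CTGF are highest in replicate 1, and the bars of ACTG1, ACTB, GAPDH and LGALS1 lie far to the right of their circles.

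Some secreted matrix and adhesion regulators were also abundant, and several of them were uneven across the libraries. Of 40 secreted regulators 33 were expressed, and of 39 collagen, laminin and other matrix genes 28 were. Of these, 5 secreted regulators and 1 matrix gene were among the 100 most abundant named genes. CTGF and CYR61, matricellular proteins known as targets of the YAP and TEAD transcription factors, and ANKRD1, a nuclear ankyrin-repeat protein of the same target group, were among the 34 most abundant named genes. CTGF had 471, 275 and 287 FPKM in replicates 1, 2 and 3. ANKRD1 had 509, 314 and 266 FPKM. THBS1, the matricellular glycoprotein thrombospondin, had 638, 281 and 302 FPKM. All 3 genes were highest in replicate 1 of the no dox group, and each was highest in replicate 1 of the dox group too, at 443, 648 and 484 FPKM in the same order of genes. The promoters of these 3 genes are shown as RefSeq sequence (GRCh38.p14), the 200 bases that precede the annotated start, 5′ to 3′ in the direction of the gene, because the genes moved together across libraries. The capitals mark GGAATG, the core of the motif that TEAD factors bind, and in CTGF also TATAAA, the core of the TATA box; the windows are CTGF (CCN2 in RefSeq) at chr6:131951373-131951572 on the minus strand, ANKRD1 at chr10:90921088-90921287 on the minus strand and THBS1 at chr15:39580879-39581078 on the plus strand.
CTGF: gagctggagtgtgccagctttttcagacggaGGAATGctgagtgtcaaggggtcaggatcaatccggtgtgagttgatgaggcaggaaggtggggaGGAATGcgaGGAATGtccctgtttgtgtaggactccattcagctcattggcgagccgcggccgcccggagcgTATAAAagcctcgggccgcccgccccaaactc
ANKRD1: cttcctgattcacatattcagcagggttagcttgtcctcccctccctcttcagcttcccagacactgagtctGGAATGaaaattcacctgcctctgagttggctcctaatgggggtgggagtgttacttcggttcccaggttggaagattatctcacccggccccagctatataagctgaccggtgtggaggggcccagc
THBS1: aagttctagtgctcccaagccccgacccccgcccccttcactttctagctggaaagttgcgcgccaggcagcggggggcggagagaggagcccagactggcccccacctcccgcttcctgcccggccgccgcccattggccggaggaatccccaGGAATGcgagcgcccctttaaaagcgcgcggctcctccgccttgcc

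In CTGF, GGAATG began 169, 104 and 95 bases before the start and TATAAA began 32 bases before it. In ANKRD1 the single GGAATG began 128 bases before the start, and in THBS1 it began 46 bases before. Over all 27305 promoters of that table, 11.9% held GGAATG on either strand in the 250 bases before the start, and 9.62% did among the 7160 matched genes with a mean of at least 1 FPKM. Of the 100 most abundant genes, 74 were nuclear genes with a symbol that is not clone-based, 58 had a promoter in the table, and 8 of these (13.8%) held it. TATAAA on either strand within 40 to 20 bases before the start was found in 4 of the 58 (6.90%), in 1.79% of the matched genes with at least 1 FPKM and in 3.00% of all promoters. The CArG box, the site of serum response factor, was found in 1 of the 58 (1.72%) and in 1.14% of all promoters. These matches describe the letters of the windows only.

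Other secreted proteins lay at similar or lower levels. CYR61 was more even than CTGF, with 374, 360 and 307 FPKM in replicates 1, 2 and 3. IGFBP7, which binds insulin-like growth factors, had 264 ± 11.2 FPKM, and STC2, a secreted stanniocalcin, had 188 ± 38 (SD, n = 3 for each). STC2 was highest in replicate 1, like CTGF, and IGFBP7 was not. In the matrix list SPARC, a collagen-binding glycoprotein, had 169, 110 and 110 FPKM, and COL4A2, a basement membrane collagen, had 121, 90.9 and 76.7. The fibrillar collagen genes were uneven, with COL5A2 at 18.7 FPKM and COL1A1 at 8.99 on average, and COL1A2 (0.0123), COL3A1 (0.0208) and COL5A1 (0.00394) close to 0. The matrix list held 1.24%, 0.778% and 0.756% of the summed FPKM in replicates 1, 2 and 3, and the secreted regulators held 2.11%, 1.58% and 1.51%, so replicate 1 was the highest for both.

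Genes of translation, glycolysis, redox control and protein folding held further top ranks, with 10 ribosomal proteins, 2 translation factors, 4 glycolysis, 3 redox and iron genes and 4 chaperones among the 100 most abundant. All 74 cytosolic ribosomal protein genes were expressed, with a median of 60.7 FPKM. ENO1, GAPDH and PGAM1, enzymes of glycolysis, had 461 ± 51.3, 355 ± 63.7 and 224 ± 44.9 FPKM (SD, n = 3 for each), and 19 of the 20 glycolysis genes were expressed. GAPDH rose in rank to 15 with 1519 ± 273 per kilobase of merged exon, and PKM, pyruvate kinase, went from 144 ± 8.99 FPKM to 600 ± 37.3. All 24 genes of the redox and iron list were expressed, led by FTL, the ferritin light chain, with 614 ± 65.8 FPKM, and by MT2A, a metallothionein, with 307, 311 and 314 FPKM. MT2A had a coefficient of variation of 1.12%, the replicates being nearly equal. LGALS1, the carbohydrate-binding galectin, had 523, 502 and 540 FPKM, and S100A6, a small calcium-binding protein, had 240, 329 and 340. Among 23 chaperones 22 were expressed, with CALR (222 ± 28.8 FPKM) and HSPA5 (197 ± 38.1), both of the endoplasmic reticulum, at the head. All 37 genes of a chosen list of nuclear genes of the respiratory chain and ATP synthase were expressed, at a median of 16.7 FPKM. Of 29 listed proteasome genes 28 were expressed, and the list median was 10.7.

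**Figure D3:**
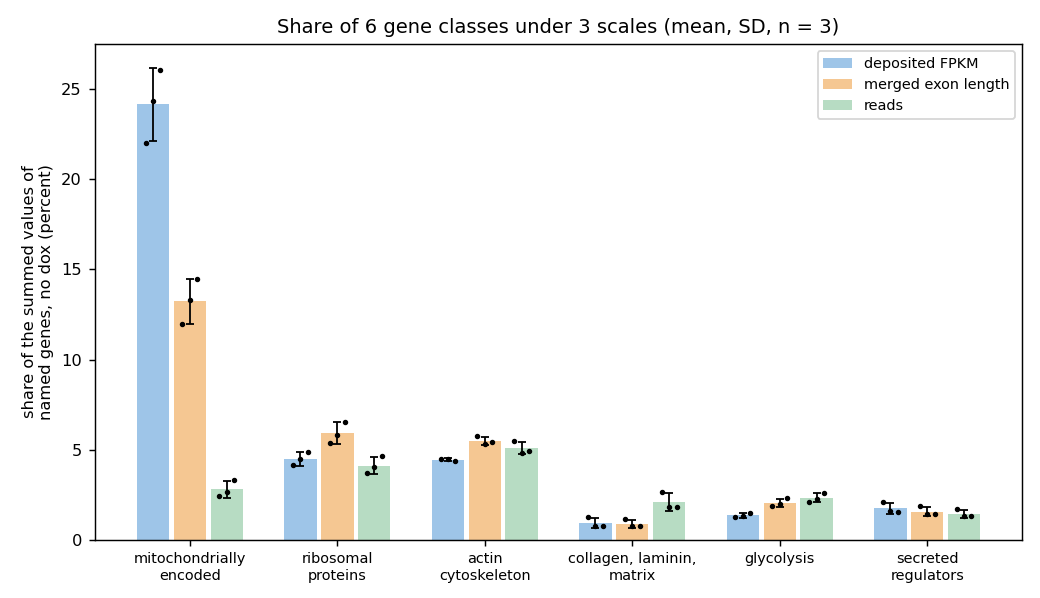
Share of 6 gene classes in the no dox libraries, in percent of the summed values of named genes, under deposited FPKM, level per kilobase of merged exon, and reads; bars are means, error bars are SD (n = 3) and points are libraries. The mitochondrially encoded class goes from 24.2% to 13.2% and 2.80% over the 3 scales, and the actin class stays between 4.45% and 5.49%.

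The labels call the cells epithelial, and the marker genes gave a mixed picture. Of 23 mesenchymal markers 15 were expressed. VIM, the intermediate filament vimentin, had 273, 341 and 396 FPKM in replicates 1, 2 and 3. MMP2, a matrix metalloproteinase, had 190, 223 and 214 FPKM, and NT5E, the surface ecto-nucleotidase CD73, had 107, 173 and 180. CDH2, the N-cadherin gene, had 33.1 ± 3.66 FPKM (SD, n = 3), and LOX, THY1 and CD44 lay at 61.5, 28.8 and 28.6 FPKM. Mesenchymal transcription factors were lower, with TWIST2 at 6.55 FPKM, TWIST1 at 6.31, SNAI1 at 3.54, SNAI2 at 1.68, ZEB1 at 1.07 and ZEB2 at 0.963. S100A4 (0.988), ENG (0.599), PDGFRA (0.296) and POSTN (0.0382) were below 1 FPKM on average. CDH11 and TCF21 were listed at 0 in all 3 libraries. Of 21 epithelial adhesion genes 7 were expressed. These were mostly desmosomal, with the cadherin DSG2 at 21.6, 24.7 and 23.0 FPKM, the plaque protein DSP at 10.5 ± 0.124 and its partner JUP at 6.35 ± 1.09. The defining epithelial genes CDH1, for E-cadherin (0.00399 FPKM), EPCAM and GRHL2 (both listed at 0), and the splicing factors ESRP1 (0.00483) and ESRP2 (0.0101) were at or near 0. Of 14 keratins 6 were expressed. Among keratins of simple epithelia KRT18 had 45.03, 34.6 and 50.4 FPKM, KRT8 had 26.98, 20.02 and 27.17, and KRT7 had 3.02, 3.39 and 3.21. In the same class KRT19 (0.0304) was near 0 and KRT20 was listed at 0. KRT80 and KRT81 were expressed too, at 17.4 and 7.59 FPKM on average. Among keratins of stratified epithelia KRT10 had 18.2 ± 3.81 FPKM, while KRT5 (0.00303) and KRT14 (0.00311) were near 0. The median level was 5.53 FPKM over the 23 mesenchymal genes, 0.569 over the 14 keratins and 0.0904 over the 21 epithelial adhesion genes.

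Markers of the pigment epithelium were mostly low. Of 25 such genes 5 were expressed, namely SOX9, GPNMB, RDH10, OTX2 and MITF. SOX9, a transcription factor of many tissues, had 34.7, 36.9 and 40.7 FPKM. OTX2 and MITF, the transcription factors that specify the pigment epithelium, had 2.10, 2.97 and 3.14 FPKM and 2.10, 2.07 and 2.23 FPKM. Both were thus present in every library at a low level. The genes of the mature tissue were near 0, with RPE65, the isomerase of the visual cycle, at 0.0896 FPKM, BEST1, a chloride channel, at 0.0518, TYR, the first enzyme of melanin synthesis, at 0.00716, and TTR and TRPM1 listed at 0. Per kilobase of merged exon OTX2 and MITF reached 6.53 ± 1.33 and 9.65 ± 0.392 (SD, n = 3).

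Other lineages left few traces. None of 11 blood genes and none of 8 matched endothelial genes was expressed, with summed levels of 0.0274 to 0.0970 and 0.221 to 0.271 FPKM in the no dox libraries, and HBB, CD3E and ERG were listed at 0. Of 13 matched photoreceptor genes only OPN1SW was expressed (3.53, 4.27 and 4.59 FPKM), while GNAT1, RCVRN and PRPH2 were listed at 0. SYT1 (2.41 ± 0.208 FPKM) and MAP2 (1.97 ± 0.48) were the only expressed genes of 11 matched neuronal markers, and GLUL, glutamine synthetase, was the only one of 9 glial markers (3.76 ± 0.647). None of 8 pluripotency genes was expressed, and the highest, DNMT3B, had 0.117 FPKM. Smooth muscle genes were split, since 5 of 10 were expressed. CNN1 (0.147 FPKM on average), ACTG2 (0.0939), MYH11 (0.0126) and DES (0.00784) were not. TAGLN, an actin-bundling protein, had 82.9, 28.7 and 38.2 FPKM in replicates 1, 2 and 3, ACTA2, the smooth muscle actin, had 40.5, 9.02 and 15.7, and LMOD1, a leiomodin, had 24.2, 14.9 and 14.7, while MYOCD, the smooth muscle coactivator myocardin, was listed at 0. TAGLN, ACTA2 and LMOD1 were highest in replicate 1, like THBS1 and CTGF, and MYLK, the myosin light chain kinase, was not (11.8, 12.3 and 11.3).

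**Figure D4:**
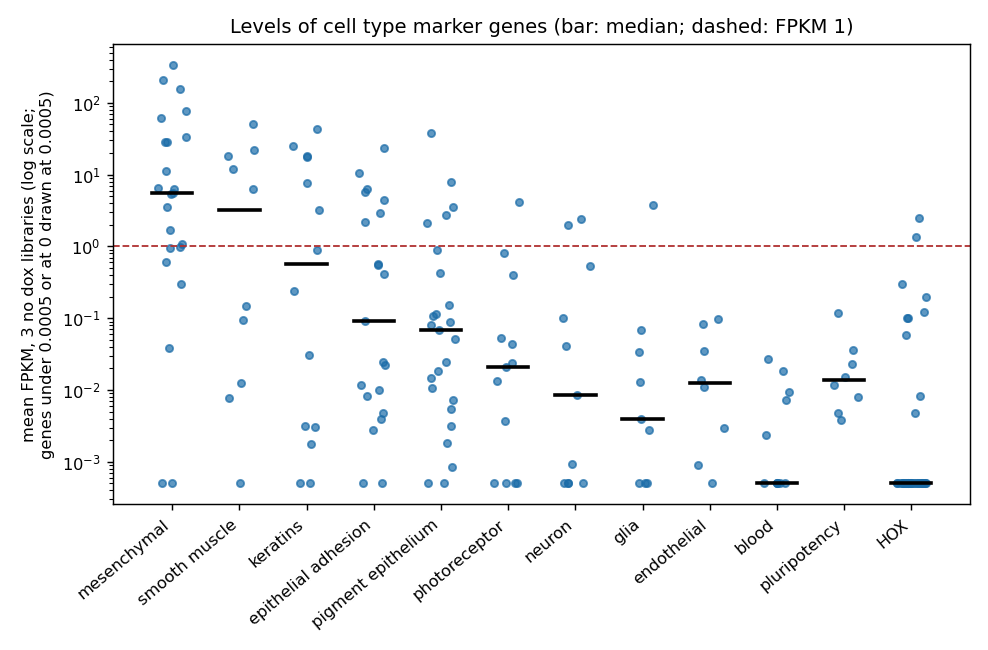
Mean FPKM in the no dox libraries of each marker gene, by list, on a log axis; genes under 0.0005 or at 0 are drawn at 0.0005, bars are list medians and the dashed line is 1 FPKM. The mesenchymal and smooth muscle medians lie above the line, at 5.53 and 3.22 FPKM, though both lists have members below it. The medians of the other lists lie below the line.

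Of 52 lineage factors 20 were expressed, led by the nuclear receptor NR2F1 (48.5 ± 6.38 FPKM), SOX9 and the forkhead factor FOXC2 (32.1 ± 5.20) (SD, n = 3 for each), with NR2F2 at 22.9. The HOX genes, which set position along the body axis, were nearly silent. Of 39 HOX genes 29 were listed at 0 in all 3 libraries, including every member of the HOXA and HOXC clusters, and only HOXB7 (2.10, 2.62 and 2.68 FPKM) and HOXB9 (1.36 ± 0.311) were expressed. Among 31 receptor tyrosine kinases 15 were expressed. AXL, the receptor for GAS6, had 125, 134 and 139 FPKM, EPHA2, an ephrin receptor, had 89.2, 85.2 and 83.0, and MET, the receptor for hepatocyte growth factor, had 27.0 ± 2.44. EGFR, the receptor for epidermal growth factor, had 8.45 ± 0.971, and KIT, RET, NTRK2 and NTRK3 were listed at 0. A list of 20 genes held receptors of the TGF-beta, hedgehog, Notch and WNT pathways and the Notch ligand JAG1, and 16 were expressed. The WNT receptor FZD2 had 70.1, 67.3 and 65.4 FPKM, ahead of NOTCH2 at 21.6 and TGFBR2 at 20.3. The receptor levels varied little, and the summed level of the 31 kinases was 310, 315 and 317 FPKM in replicates 1, 2 and 3.

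Genes of the cell cycle and of growth arrest were expressed side by side. Of 31 proliferation genes 29 were expressed, and the exceptions were the G1/S cyclins CCNE1 (0.467 FPKM) and CCNE2 (1.10 FPKM on average). CCND1, the G1 cyclin D1, had 253, 191 and 200 FPKM. PCNA, the replication clamp, had 67.3, 65.8 and 59.3, and TOP2A, the mitotic topoisomerase, had 47.9, 56.8 and 53.0. CCND1 ranked at 56 of the named genes by FPKM and at 75 per kilobase of merged exon. Of 41 centromere and kinetochore genes 36 were expressed at a median of 3.81 FPKM. CENPB, which binds a motif in alpha satellite DNA, was far above the others at 76.8 ± 9.85 FPKM, CENPF, a large protein of the outer kinetochore, had 14.6, 21.1 and 15.7, and CENPA, the centromeric histone H3 variant, had 3.03, 3.16 and 2.49. Of 16 growth arrest genes 15 were expressed, including the cyclin-dependent kinase inhibitors CDKN1A (72.6, 36.2 and 38.0 FPKM) and CDKN2A (13.1, 14.6 and 14.4) and the antiproliferative gene BTG1 (38.3 ± 6.87). Of these 3 only CDKN1A was highest in replicate 1 by more than 1.5 times.

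Telomerase and cilium genes were checked because the line is immortalised with TERT and used for cilium work. TERT had 0.260, 0.287 and 0.255 FPKM, resting on 161, 183 and 76 reads, and 1.15 ± 0.0737 per kilobase of merged exon (SD, n = 3). Whether these reads come from the transgene or the endogenous gene cannot be told apart in gene totals. Of 13 telomere genes 9 were expressed, with NOP10, a protein of the telomerase and other H/ACA RNA particles, at 45.2 ± 2.1 FPKM. Of 32 primary cilium genes 15 were expressed, led by the small GTPase ARL3 (23.7, 21.7 and 23.8 FPKM), the kinesin subunit KIF3B (12.8 ± 0.59) and the transport protein IFT57 (8.17 ± 1.4). None of 9 motile cilium genes was expressed, and FOXJ1, their regulator, was listed at 0. Among 22 long noncoding RNAs 15 were expressed. MALAT1, a nuclear noncoding RNA, had 18.48, 27.74 and 45.4 FPKM, highest in replicate 3, and SNHG6 was even, with 25.9 ± 1.2.

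Across 9082 genes, which are not independent replicates, log2 levels of replicates 1 and 2 correlated at a Pearson r of 0.986, those of replicates 1 and 3 at 0.955 and those of replicates 2 and 3 at 0.961. Over the 9078 named genes with a mean of at least 1 FPKM the median coefficient of variation was 8.69%, where counting alone would give 2.87% at the same reads. The median was 5.69% without replicate 1, 8.15% without replicate 2 and 7.50% without replicate 3. Each of these values rests on 2 libraries, so none is directly comparable with the 8.69% of 3 libraries. Of 2052 genes with a mean of at least 10 FPKM, 154 had a highest library at least 1.5 times the lowest, and 38 had at least 2 times. The 154 genes were highest in replicate 1 in 79 cases, in replicate 2 in 31 and in replicate 3 in 44. Of the 79 genes high in no dox replicate 1, 75 were also highest in dox replicate 1. The corresponding counts were 20 of 31 for replicate 2 and 34 of 44 for replicate 3. What libraries of the same number share is not given in the labels.

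The genes high in replicate 1 included contractile, matrix and secreted genes. Of 20 protein-coding genes of high variation, singled out after their values were seen, 14 were highest in no dox replicate 1 and 13 of those in dox replicate 1 too. ACTA2 went from 9.02 FPKM in replicate 2 to 40.5 in replicate 1, and from 8.76 to 38.9 in the dox libraries. IGFBP3, a binding protein of insulin-like growth factors, had 79.3, 21.6 and 32.2 FPKM in the no dox libraries and 69.6, 17.1 and 22.5 in the dox libraries. SCD, the stearoyl-CoA desaturase of lipid synthesis, went the other way, with 59.3, 201 and 181 FPKM in no dox and 45.9, 168 and 159 in dox. The order over the replicate numbers was the same in both groups for IGFBP3 and SCD. Of the 79 genes high in replicate 1, 57 had a promoter in the RefSeq table. GGAATG was found in 14 of them (24.6%), TATAAA in the window above in 9 (15.8%) and the CArG box in 2 (3.51%), beside the shares of 9.62%, 1.79% and 1.09% for genes with at least 1 FPKM. The 79 genes were picked by their values and include CTGF, ANKRD1 and THBS1, whose promoters are shown above. The difference in shares was not tested, and the matches describe letters only.

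**Figure D5:**
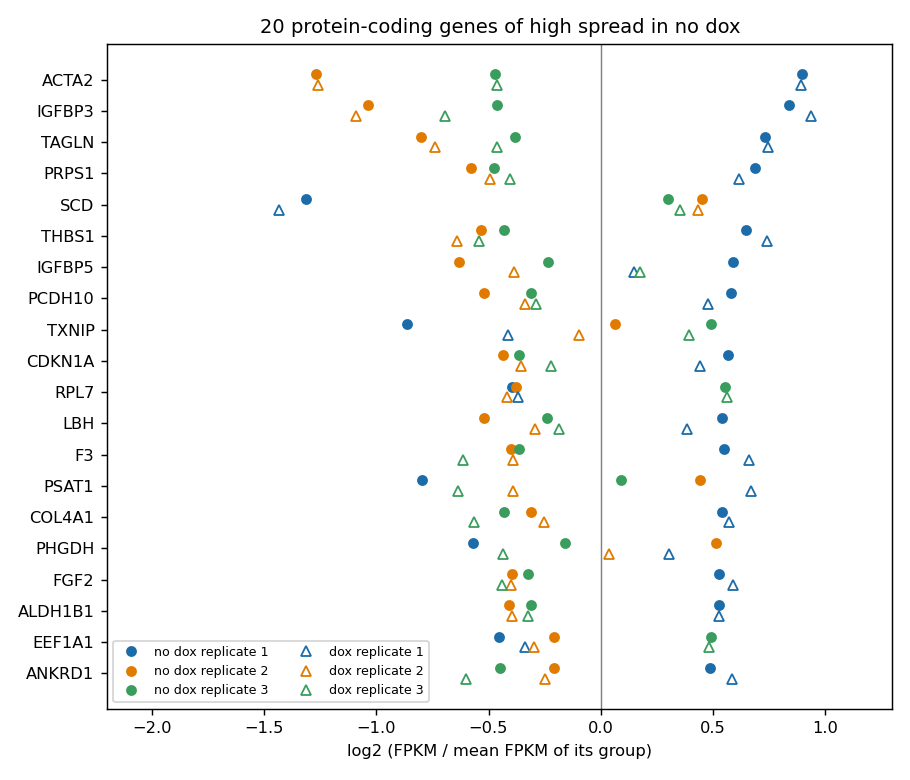
20 protein-coding genes with a high coefficient of variation over the no dox libraries, among genes with a mean of at least 10 FPKM, as log2 of FPKM over the mean of the same group; circles are no dox and triangles dox libraries, coloured by replicate number. For ACTA2, IGFBP3, TAGLN and THBS1 replicate 1 is highest in both groups, and for SCD it is lowest in both.

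By the coefficient of variation over all named genes of at least 10 FPKM, the most uneven genes were short mitochondrial RNAs. Of the 10 highest, 9 were mitochondrial transfer RNA genes (MT-TV, MT-TT, MT-TF, MT-TI, MT-TA, MT-TN, MT-TG, MT-TL2 and MT-TH). MT-TA, the transfer RNA for alanine, had 436, 722 and 3.84 FPKM in no dox replicates 1, 2 and 3 and 275, 449 and 4.03 in the dox libraries. MT-TN, the transfer RNA for asparagine, had 256, 406 and 0.908 FPKM in the no dox libraries. Replicate 3 was the low library in each case. The 16 mitochondrial transfer RNA genes, of 66 to 75 bases, summed to 2079, 2813 and 457 FPKM in no dox and 1560, 1996 and 366 in dox. In each group 15 of the 16 were lowest in replicate 3, and 6 were at 0 there. The 13 protein-coding mitochondrial genes ran in the other direction, with 24436, 26466 and 31181 FPKM in no dox. The remaining gene of the 10, a 297-base row on chromosome 5 that carries the symbol MIR4461 and a pseudogene biotype, had 3.33, 5.53 and 23.6 FPKM and was highest in replicate 3. Fragment sizes of the libraries were not analysed here, and their part in these values was not tested.

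Ribosomal protein genes were higher in replicate 3. Of the 74 genes 60 were highest in no dox replicate 3 and 69 in dox replicate 3, at a median ratio of 1.20 and 1.29 to the mean of the other two libraries. RPL7, of the large subunit, had 46.4, 47.0 and 89.6 FPKM in no dox and 53.4, 51.7 and 101.9 in dox. EEF1A1, the elongation factor that delivers transfer RNA, had 206, 244 and 396 FPKM in no dox and 253, 261 and 447 in dox. Both genes have many near-identical copies in the genome, and the sources used here do not say how reads shared among copies were assigned. The class as a whole held 4.12%, 4.47% and 4.86% of the summed FPKM in no dox replicates 1, 2 and 3. Replicate 3 also had the fewest reads and the largest mitochondrial share of reads (3.33%, against 2.42% and 2.63%), and the part of either in these values was not tested.

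The abundant genes were then followed into the dox libraries. The same no dox libraries rank the genes and enter this contrast. In a limma fit on log2(normalised count + 1) over all genes, 71 of 13153 tested genes passed a Benjamini-Hochberg adjusted p of 0.05, a background of 0.54% called, and 0 of the 100 most abundant genes did. At an unadjusted limma p under 0.05 there were 11 of the 100, beside 1710 of the 13153 tested genes. The edgeR quasi-likelihood test called 0 of the 100, beside 67 of 13003 over all genes (0.515%). DESeq2 called 6 of the 100 (2 higher and 4 lower in dox), beside 522 of 13004 over all genes (4.01%). Adding the replicate number as a block raised the count to 47 of 100, 13 higher and 34 lower in dox, beside a background of 22.5% called (2965 of 13153). ENO1 was lower in dox by a log2 difference of -0.45 (SE 0.155 without the block), with a limma adjusted p of 0.272 without the block and 0.000352 with it. THBS1 had a log2 difference of -0.56 (SE 0.449 and limma adjusted p 0.693 without the block, SE 0.0631 and limma adjusted p 0.000369 with it). For THBS1 the no dox and dox libraries overlapped, while within each replicate number the difference had 1 sign.

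The shares of 6 gene classes were set beside those in dox, with an exact permutation test that at 3 libraries against 3 cannot give a p under 0.1, so no class could pass. The actin class held 4.45 ± 0.077% of the summed FPKM in no dox and 4.02 ± 0.104% in dox (SD, n = 3 for each), without overlap. Its exact two-sided permutation p of 0.1 is the smallest that the 20 assignments of 6 libraries allow (0.6 after Benjamini-Hochberg adjustment over 6 classes). By reads the groups overlapped, at 5.49%, 4.84% and 4.94% in no dox and 5.10%, 4.70% and 4.78% in dox (exact permutation p 0.5). Per kilobase of merged exon they did not overlap (exact permutation p 0.1). The summed FPKM of the class averaged 5985 in no dox and 5362 in dox, and TMSB10 alone averaged 2451 and 2018. The glycolysis class held 1.35 ± 0.130% and 1.18 ± 0.136% (exact permutation p 0.2, adjusted 0.6). The mitochondrially encoded class held 24.2 ± 2.05% and 22.9 ± 2.29% (exact permutation p 0.6, adjusted 0.7). This test does not use the pairing of replicate numbers. Within each number the actin share was lower in dox in 3 of 3 pairs. The glycolysis share was lower in 3 of 3 (1.24% to 1.04%, 1.32% to 1.18% and 1.49% to 1.31%), as was the matrix share (1.24% to 1.12%, 0.778% to 0.732% and 0.756% to 0.665%). The ribosomal protein share was higher in 3 of 3 (4.12% to 4.37%, 4.47% to 4.70% and 4.86% to 5.49%). The mitochondrially encoded and secreted regulator shares moved in both directions. The differences within pairs of these shares were not tested. Without the block, the genes of the identity lists that passed the limma test were CLDN1 and DSC3 of 11 tested epithelial adhesion genes (2.21 to 3.96 and 2.91 to 10.01 FPKM, both higher in dox), KRT81 of 8 keratins (7.59 to 19.1, higher), CNN1 of 7 smooth muscle genes (0.147 to 0.559, higher) and GATA2 of 36 lineage factors (0.728 to 1.82, higher), named because they passed. None of the 21 tested mesenchymal genes and none of the 12 tested pigment epithelium genes passed limma without the block. The background without the block was 0.54% called (71 of 13153), so the lack of a call in such short lists says little about them. With the replicate block, 1 mesenchymal gene was called higher and 8 lower, and 2 pigment epithelium genes higher. With the block 6 keratins were called higher, 4 epithelial adhesion genes higher and 1 lower, 1 smooth muscle gene higher and 2 lower, and 7 lineage factors higher and 6 lower, beside the background of 22.5% called.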

How the data were processed

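The 6 libraries were grouped by their titles, and the members and gene lists were chosen with earlier results of these data known. Per the submitters' processing notes, bcl2fastq, Trimmomatic, TopHat and edgeR were used with the genome build hg19; the role of each step is not stated. FPKM values of 57773 genes were deposited by the authors, and dividing the CPM of their comparison table by gene width in kilobases gave the same values (largest relative difference 1.5e-07). All deposited CPM values were whole multiples of 1 read (100% in each library, tolerance 0.01), so whole reads were recovered from them; 3 reads correspond to 0.0929 to 0.199 CPM in the no dox libraries. A second deposited table held normalised counts of 13161 genes, a signal already scaled for depth by a formula that the sources used here do not state. Strand use and the handling of reads shared between genes are likewise not stated, so values of overlapping genes and near-identical copies are uncertain.

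Means, SD and coefficients of variation were computed over the 3 no dox libraries. Shares used the summed FPKM of named genes. Levels per merged exon used GENCODE release 29 exons matched by identifier (12752 genes), an alternative added after seeing the data. The contrast was limma-trend on log2(normalised count + 1) with at least 10 normalised counts in 3 libraries, Benjamini-Hochberg adjusted over 13153 genes. It was run on simulated data that held no difference between replicate numbers, so that run does not show how the fit without the block behaves where such differences are present. After subtracting group means, the no dox and dox libraries of equal number had correlations across genes of 0.749, 0.732 and 0.784, against -0.55 to -0.24 for unequal numbers, so the replicate numbers were taken to pair the libraries. Chi-square per degree of freedom between no dox libraries was at least 16.0, so none was a duplicate. Named genes were the 20 of highest mean FPKM with a symbol, FOXM1, CENPA, CENPF and TERT, the 3 highest members of each list and every marker a sentence counts, the 10 of highest variation at a mean of at least 10 FPKM, and the genes at ranks 100 and 101; clone-based names were counted only, some items are not reported here, and other names were chosen after their values were seen. Promoters came from a RefSeq table of GRCh38.p14. Computation used Python 3.11.15 with numpy 2.4.6, scipy 1.17.1 and matplotlib 3.10.9, and DESeq2 1.42.0, limma 3.58.1 and edgeR 4.0.16 under R 4.3.3.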

Additional observations from a re-analysis of the deposited data

How the results depend on the processing

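Shares depend on the scale. By reads in place of FPKM the share was 2.80% for mitochondrially encoded genes, 5.09% for actin, 2.09% for matrix, 2.32% for glycolysis and 21.6% for the 100 most abundant genes. Per merged exon the share was 13.2% for mitochondrially encoded genes, 5.49% for actin, 5.91% for ribosomal proteins, 2.04% for glycolysis and 32.3% for the 100 genes. Without mitochondrial genes in the denominator, ribosomal proteins held 5.92%, actin 5.87%, matrix 1.21%, glycolysis 1.78% and secreted regulators 2.28%. At a level of 5 FPKM 3520 genes were expressed. Ranked by reads, 45 of the 100 most abundant genes were shared. The median coefficient of variation lay between 5.69% and 8.15% with 1 no dox library left out, the lowest without replicate 1. Leaving out each no dox library kept 95 to 96 of the 100 genes. With the replicate block 47 of the 100 genes and 2965 of all genes were called for dox, and with DESeq2 6 and 522. FPKM values called 31 of all genes. The count over all genes was 16, 8 and 3 without no dox replicate 1, 2 or 3, and 21, 5 and 4 without dox replicate 1, 2 or 3, with fewer samples in each fit, and 0 of the 100 genes in every one of these. Limits of the data are the shallow replicate 3, the deposited gene width, and 3 libraries a group of unknown independence.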

Other observations

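Some genes of translation had very low deposited levels. EEF1G, a subunit of the elongation factor complex, had 0.0979 FPKM on average in the no dox libraries, and 99.9% of its merged exon length is shared with another annotated gene. EIF4A1, the helicase of translation initiation, had 0.107, 0.206 and 0.120 FPKM, and 48.6% of its merged exon length is shared. Over the matched genes of the lists for translation factors, ribosomal proteins, proteasome, respiratory chain, glycolysis and reference genes, the 6 genes with a mean under 1 FPKM had a median of 22.4% of merged exon length shared with another gene (0 to 99.9%), and the 182 genes at or above 1 FPKM had a median of 1.35% (0 to 75.8%). The levels of such genes are values of the deposited table, and the part of the overlap in them was not tested.

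BCYRN1, a short noncoding RNA, had 27.2 ± 12.4 FPKM as deposited (SD, n = 3) at a gene width of 13458 bases, and 1832 ± 834 per kilobase of merged exon at a length of 200 bases, which moved it from rank 694 to rank 13. Its reads were counted on the authors' gene model, whose width is far from the 200 bases that divide them here. Reads from outside the 200 bases may be included, so the level per merged exon and rank 13 are uncertain. BCYRN1 was singled out after its values were seen. HMGA1, a chromatin architectural protein, moved from 153 ± 31.6 FPKM and rank 71 to 791 ± 163 and rank 28.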
